A study of Mus musculus with 7 samples.

Results

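The olfactory receptors described here are those that gave a clear signal on every array of a study of diesel exhaust particles (DEP) in the nose of the mouse. They were chosen by measured values: a gene whose symbol is Olfr followed by a number was taken when at least 1 of its probes was well above background, in either of the 2 channels, on each of the 7 arrays. This selected 121 of the 1065 olfactory receptor genes with a probe. Total RNA came from the nasal cavity of female BALB/c mice, which the labels give as 6 weeks of age, and the methods describe the tissue as septum and turbinates. The DEP groups inhaled nebulised DEP at 100 μg/m3 for 1 hour a day on 5 days a week, and 4 arrays were made after 4 weeks and 3 arrays after 8 weeks. Each array carried the RNA of DEP mice, labelled with Cy5, and that of mice labelled only as control, with Cy3. The dyes were not swapped, so a dye effect of a probe and an effect of DEP cannot be told apart. The arrays of 4 weeks lay on 1 slide and those of 8 weeks on the other, so the effects of slide and duration cannot be told apart either. The labels call the arrays biological replicates, and how many mice gave RNA to an array, or whether control RNA was shared between arrays, is not given in the sources used here, so p-values measure the spread between these arrays.

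Olfactory receptors are G protein-coupled receptors that bind odorants on the cilia of olfactory sensory neurons. A mature neuron expresses 1 receptor gene, from 1 of its alleles, out of a family spread over many genomic clusters, and each receptor is used by a small fraction of the neurons in a zone of the epithelium. The bound receptor signals through the G protein Golf and adenylyl cyclase to a cyclic nucleotide-gated channel. In RNA of whole nasal tissue, fewer neurons that chose a receptor and less RNA per neuron cannot be told apart. Class I receptors resemble those of fish and class II receptors are the larger group found in land vertebrates.

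Most receptors were at the limit of detection. Of the 1065 genes, 348 were well above background on no array and 245 on 1 array, and 82 were so on 6 arrays. The mean log2 intensity over the arrays had a median of 6.06 among the receptors seen on no array, 6.66 among those seen on 6 arrays and 7.12 among the 121 members, which ranged from 6.50 to 11.29. Just inside the rule lay Olfr572 at 6.50 and Olfr351 at 6.52, and just outside it lay Olfr672 at 7.09 and Olfr870 at 6.96, each above background on 6 arrays. In most members the DEP channel was the one that met the rule. It was above background on all 7 arrays for 116 members, and both channels were so for 31. On the arrays of 4 weeks the control channel was above background for 51, 80, 44 and 116 of the 121 members (replicates 1 to 4), against 118 to 121 in the DEP channel, so that receptors brighter in the DEP channel had a better chance to be chosen. At 8 weeks the control channel was above background for 110 to 121 members.

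**Figure D1:**
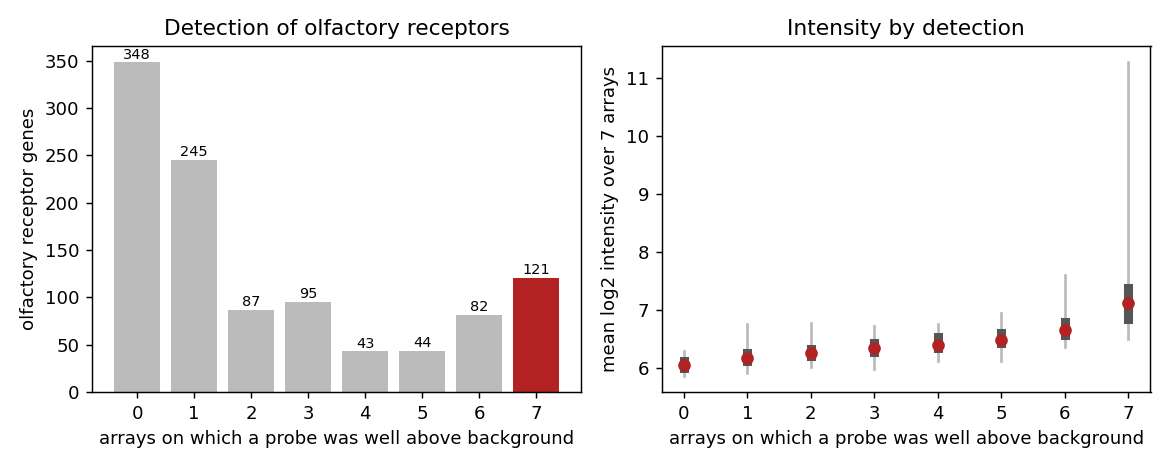
Left, number of olfactory receptor genes (y axis) by the number of arrays on which a probe was well above background (x axis), with the 121 members in red. Right, the mean log2 intensity of the same genes (points, medians; thick bars, quartiles; thin lines, range), which rises from a median of 6.06 to 7.12.

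The probe of Olfr59 was the brightest, with a mean log2 intensity of 11.29, followed by Olfr544, a class I receptor known to bind azelaic acid, at 10.67, Olfr1466 at 10.02 and Olfr536 at 9.22. The median member had 7.12, and an order of brightness between probes is not an order of transcript levels. By the numbering of receptor families in the gene synonyms, 7 members were class I, 111 were class II and 3 had no family number. With 1 Mb as the largest gap between receptor genes of a cluster, 18 members lay in 1 cluster of chromosome 2 and 8 members in each of the 3 next largest groups. Genes of this family resemble each other, and the files hold no probe sequences, so which close relative a probe also measured was not tested. Of the members, 11 had more than 1 probe tested, and their value is that of the brightest probe.

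The windows before the annotated start of 5 members are shown because these receptors carry the results that follow. Olfr1384 was among the highest after 4 weeks, Olfr536 was the lowest after 8 weeks, and Olfr224, Olfr330 and Olfr319 are neighbours on chromosome 11, of which the first and second were lower and the last was higher after 8 weeks. Each line gives the 250 bases before the start (RefSeq, GRCm38.p6), 5′ to 3′ on the strand of the gene. Capitals mark the longest run of bases that Olfr224 and Olfr330 share, and in Olfr319 a match to the homeodomain motif TAATTA.
Olfr224, chr11:58570569-58570818, minus strand: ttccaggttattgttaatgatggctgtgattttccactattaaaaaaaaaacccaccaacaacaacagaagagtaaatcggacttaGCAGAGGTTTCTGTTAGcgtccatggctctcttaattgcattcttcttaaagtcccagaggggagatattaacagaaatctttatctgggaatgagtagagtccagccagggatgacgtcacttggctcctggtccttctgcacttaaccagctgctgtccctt
Olfr330, chr11:58534826-58535075, minus strand: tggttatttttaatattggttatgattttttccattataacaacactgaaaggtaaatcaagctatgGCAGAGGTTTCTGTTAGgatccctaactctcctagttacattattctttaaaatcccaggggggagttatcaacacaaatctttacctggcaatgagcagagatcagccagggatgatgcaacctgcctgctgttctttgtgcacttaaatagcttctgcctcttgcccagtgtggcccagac
Olfr319, chr11:58701453-58701702, plus strand: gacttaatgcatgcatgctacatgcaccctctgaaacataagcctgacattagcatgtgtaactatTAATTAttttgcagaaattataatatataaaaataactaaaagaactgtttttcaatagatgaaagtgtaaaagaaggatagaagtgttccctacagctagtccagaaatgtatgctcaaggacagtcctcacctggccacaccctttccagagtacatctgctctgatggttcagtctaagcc
Olfr536, chr7:140507319-140507568, minus strand: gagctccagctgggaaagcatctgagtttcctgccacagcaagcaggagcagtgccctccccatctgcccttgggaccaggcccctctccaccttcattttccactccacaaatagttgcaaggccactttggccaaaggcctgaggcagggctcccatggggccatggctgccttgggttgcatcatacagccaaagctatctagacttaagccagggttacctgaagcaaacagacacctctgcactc
Olfr1384, chr11:49513368-49513617, plus strand: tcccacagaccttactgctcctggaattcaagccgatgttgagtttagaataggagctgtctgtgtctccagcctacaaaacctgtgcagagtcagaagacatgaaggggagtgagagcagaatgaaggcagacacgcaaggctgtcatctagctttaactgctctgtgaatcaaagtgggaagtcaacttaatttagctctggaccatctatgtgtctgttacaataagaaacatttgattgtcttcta

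Of the 121 members, 109 had a promoter window in the RefSeq table. In a global alignment of the 250 bases, Olfr224 and Olfr330 were 72.8% identical, the highest value among the 5886 pairs of members, whose median was 53.2%. Their longest shared run was 17 bases long. Olfr319 from the same cluster was 53.2% identical to Olfr224 and 50% to Olfr330. In the same order, Olfr329 of that cluster was at 51.6% and 56%, Olfr331 at 52% and 52.8% and Olfr30 at 54.8% and 56.8%. Homeodomain proteins such as Lhx2 and Emx2 are known regulators of receptor genes. In windows of 300 bases, reaching 50 bases past the start, TAATTA was found in 11.7% of the windows of members, 18.6% of those of all olfactory receptors and 5.29% of all promoters. The motif reads the same on either strand. An ATG stood at the annotated start of 67.6% of the members' windows, against 5.83% of all windows, so for most receptors the table places the start of transcription at the first codon, and such a window does not reach the true promoter. Of the 5 windows printed, only that of Olfr319 has an ATG there.

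Differences between DEP and control are log2 ratios after background correction and normalisation of the dyes within each array, and they are tested against 0 by limma across all 25236 tested probes. After 4 weeks, most members lay above the control, but the rule favoured receptors brighter in the DEP channel. After Benjamini-Hochberg adjustment, 50 members (41.3%) were higher with DEP at a limit of 0.05 and 3 were lower (2.48%). Among all 20723 genes or transcripts tested, 21.6% were higher and 16.4% were lower. Among the 15303 that were above background on all 7 arrays, as the members were, the shares were 25.2% and 19.3%. Since the rule let the DEP channel decide, the 31 members with both channels above background on all arrays were counted as well. Of these, 13 (41.9%) were higher and 2 lower. The like share over all genes was not counted. Of all 4-week calls in a fit of such probes alone, 51.1% were higher. That is a share of calls, to be set beside the 13 and 2 calls and not beside the 41.9% of members. The median log2 ratio of the 121 members was 0.13, against 0.00 over all genes tested, and 90 members were above 0. On single arrays of 4 weeks the members' median was 0.23, 0.16, 0.16 and 0.14. Among the members called higher, log2 ratios ran from 0.18 to 1.60. These sizes depended on the treatment of the background. With the processed signals of the scanner software the members' median was 0.49, and 67 were higher and 1 was lower. At the study's thresholds, an unadjusted p of at most 0.01 and a 2-fold change, 1 member passed, Olfr1348, against 1.3% of all genes, and with the processed signals 19 members passed. Of the 50 members called higher, 32 had a control channel above background on at most 2 of the 4 arrays, and their ratios rest on a dim control signal. This was common among all members. Where the control was above background on 1 array, 18 of 32 members were called higher. On 2 arrays it was 13 of 37, on 3 arrays 5 of 19 and on all 4 arrays 13 of 32. The number of members called higher fell to 27 when the background was fitted with the outlying spots and to 31 with the methods' t-test and Benjamini-Hochberg adjustment.

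Olfr1348 rose most after 4 weeks. Its DEP signal above background was 292, 344, 324 and 300 on the 4 arrays (replicates 1 to 4), and its control signal was 76, 76, 84 and 83. The log2 ratios were 1.70, 1.56, 1.56 and 1.59, a 3.04-fold increase (log2 1.60 ± 0.22 SE, n = 4, limma adjusted p = 0.00124). All 4 arrays stood clearly above 0, and the control channel was above background on 2 of them. After 8 weeks the DEP signal of the same probe was 38.5, 40 and 23.5. The control signal was 307.5, 65 and 57.5, so that 1 array decided the 8-week mean. The log2 ratios there were -1.60, -0.11 and -0.19, with a mean of -0.63 that did not pass the test (limma adjusted p = 0.0866).

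The receptor with the second largest increase after 4 weeks was Olfr1384, with log2 ratios of 0.96, 0.85, 0.70 and 0.62. They give a 1.72-fold increase (limma adjusted p = 0.000113). Its cluster neighbour Olfr1382 had 0.58, 0.53, 0.56 and 0.49 (1.45-fold, limma adjusted p = 8.61e-05), and a second probe of Olfr1382 gave 0.35 (limma adjusted p = 0.00195). After 8 weeks neither receptor was apart from control, with means of -0.01 (limma adjusted p = 0.955) and 0.06 (limma adjusted p = 0.352). Olfr140 (0.55, on 3 arrays, as replicate 2 had a spot left out as not uniform), Olfr212 (0.54), Olfr141 (0.52), Olfr1043 (0.49), Olfr279 (0.48), Olfr59 (0.46, on 3 arrays) and Olfr1402 (0.45) complete the 10 highest after 4 weeks. Except in Olfr59, whose control channel was above background on all 4 arrays, the control channel of these 10 was so on 1 array (Olfr1043 and Olfr1402) or 2 arrays (the others). On every measured array of 4 weeks these 7 receptors were above 0, and the 2 log2 ratios farthest from each other among them were 0.32 and 0.66. Their adjusted p lay between 0.000281 and 0.00793. With the processed signals Olfr59 was at 0.49 and the other 9 of the 10 highest at 1.03 (Olfr1402) to 2.43 (Olfr1348). Olfr59 did not pass with the methods' t-test after adjustment, nor did Olfr1402 with the background fitted on all spots (limma adjusted p = 0.0561).

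The 3 receptors that fell after 4 weeks were Olfr700, Olfr120 and Olfr1299. Olfr700 had log2 ratios of -0.17, -0.57, -0.30 and -0.32 (mean -0.34, limma adjusted p = 0.00586). Olfr120 had -0.30, -0.41, -0.24 and -0.19 (mean -0.28, limma adjusted p = 0.00581). Both were below 0 on every array. With the methods' t-test after adjustment neither passed, nor did any other member called lower, and Olfr120 did not pass with the processed signals either (limma adjusted p = 0.0519). Olfr1299 had -0.35, -0.16, -0.10 and -0.10 (mean -0.18, limma adjusted p = 0.0437), and it no longer passed under 12 of 16 alternative settings. Olfr572, a class I receptor, was 1.29-fold higher with DEP after 4 weeks (limma adjusted p = 0.00329). Its control channel was not well above background on any array of 4 weeks, so the size of this difference is uncertain.

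After 8 weeks the members no longer lay mostly on 1 side of the control. Of the 121 members, 21 were higher (17.4%) and 23 were lower (19%) with DEP, against 20.3% and 16.9% of all genes tested, so the members' shares were near the background. The median was -0.05, with 52 members above 0, and on single arrays it was between -0.03 and -0.02. Without replicate 2 of 8 weeks 13 members were higher and 13 lower, and without replicate 3 of 8 weeks 15 were lower. The 31 members with both channels above background held 5 that were higher and 7 that were lower. Of all 8-week calls in the fit of such probes alone, 45.4% were higher, which is a share of calls and not of genes. The like share over all genes was not counted. The study's thresholds were passed by 2 members, Olfr901 and Olfr700, against 2.93% of all genes, and by 11 members with the processed signals. Single receptors moved further than the group did, in both directions.

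**Figure D2:**
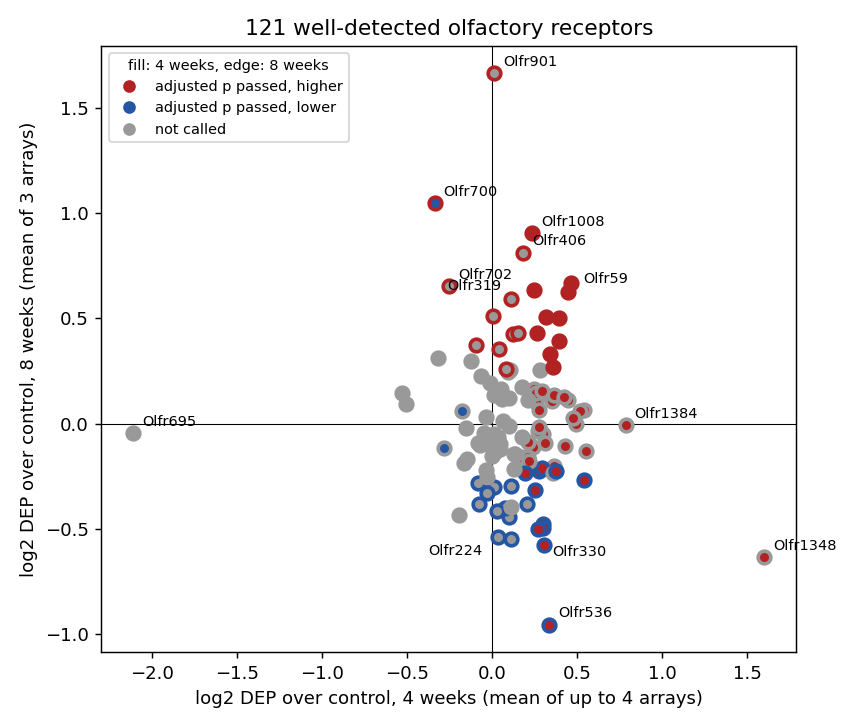
Each point is 1 of the 121 members, with its mean log2 DEP over control after 4 weeks (x axis) and after 8 weeks (y axis). The fill gives the call of 4 weeks and the edge that of 8 weeks (red, higher; blue, lower; grey, not called), and most points lie right of 0 on the x axis while the y axis splits them to both sides. Olfr695 at the left rests on 1 bright control spot.

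Olfr901 rose most after 8 weeks. Its DEP signal above background was 979, 1128.5 and 1344 on the 3 arrays, and its control signal was 457, 520.5 and 442.5. The log2 ratios of 1.43, 1.49 and 2.08 give a 3.17-fold increase (limma adjusted p = 5.62e-05). After 4 weeks the log2 ratios were 0.01, 0.12, -0.20 and 0.12, around 0. The difference between the exposure times was 1.65 ± 0.17 (SE, limma adjusted p = 0.000437).

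Olfr700 went in opposite directions at the 2 exposure times. After 8 weeks it had log2 ratios of 1.04, 1.01 and 1.10 (2.07-fold higher, limma adjusted p = 4.35e-05), against the 4 values below 0 after 4 weeks. The ranges lie far apart, and the difference was 1.39 ± 0.10 (SE, limma adjusted p = 9.86e-05). Both channels of its probe were above background on all 7 arrays. The control signal was 209 to 275.5 after 4 weeks and 247.5 to 279.5 after 8 weeks, while the DEP signal was 137.5 to 172.5 and then 392 to 474. It was the only member called lower after 4 weeks and higher after 8 weeks. Olfr702, from the same cluster, had -0.52, 0.02, -0.18 and -0.35 after 4 weeks, which did not pass (limma adjusted p = 0.0538). After 8 weeks it had 0.51, 0.75 and 0.70 (limma adjusted p = 0.00209), and the difference was 0.91 (limma adjusted p = 0.00235). These ratios of Olfr702 rest on a dim control signal, 22, 20 and 40.5 after 8 weeks, above background on 2 arrays. After 4 weeks that signal was 201 on replicate 1 and 32, 48 and 56 on the others.

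Olfr1008, Olfr406 and Olfr319 rose more after 8 weeks than after 4 weeks. Olfr1008 had 0.99, 0.90 and 0.82 after 8 weeks (limma adjusted p = 8.02e-05), against 0.41, 0.28, 0.15 and 0.08 after 4 weeks, whose call was lost under 4 of 15 alternative settings, and the difference was 0.67 (limma adjusted p = 0.00216). Olfr406 had 0.98, 0.75 and 0.71 after 8 weeks (limma adjusted p = 0.00104). After 4 weeks replicate 1 was at -0.19 and the others at 0.30, 0.31 and 0.30, and the difference of 0.63 passed (limma adjusted p = 0.0142), but not under 3 of 15 alternative settings. Olfr319 had 0.76, 0.58 and 0.56 after 8 weeks (limma adjusted p = 0.000227), and its difference between the times, 0.39 (limma adjusted p = 0.0115), turned to -0.07 with the scanner software's processed signals. Olfr59, whose probe was the brightest, was higher at both times, with 0.83, 0.68 and 0.49 after 8 weeks (1.59-fold, limma adjusted p = 0.00154), and the times did not differ by test (limma adjusted p = 0.258). Olfr1402 (0.63), Olfr1257 (0.59) and Olfr1143 (0.51) complete the 10 highest after 8 weeks, and Olfr1257 and Olfr1143 did not pass under 6 and 5 of 15 alternative settings.

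Olfr536 fell most after 8 weeks. Its DEP signal above background was 294, 294 and 206.5, and its control signal was 792, 803 and 816.5. The log2 ratios of -0.86, -0.85 and -1.16 give a 1.94-fold decrease (limma adjusted p = 9.29e-05). After 4 weeks they were 0.49, 0.28, 0.34 and 0.22 (mean 0.33, limma adjusted p = 0.00786), all above 0. The difference between the times was -1.29 ± 0.11 (SE, limma adjusted p = 0.000166). A dimmer probe of the gene, above background on 6 arrays, gave -0.18 after 8 weeks and did not pass (limma adjusted p = 0.261). After 4 weeks the dimmer probe gave -0.09 (limma adjusted p = 0.505), so the changes at both times rest on 1 probe.

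In the cluster on chromosome 11 that holds Olfr224, Olfr329, Olfr330, Olfr331, Olfr319 and Olfr30, the first 4 fell after 8 weeks. Olfr330 had -0.46, -0.76 and -0.52 (limma adjusted p = 0.00131), and Olfr224 had -0.36, -0.71 and -0.58 (limma adjusted p = 0.00283). These are the receptors whose windows, printed above, were most alike. Olfr331 and Olfr329 fell too, with windows 51.6% to 56% identical to those of Olfr224 and Olfr330. Whether likeness of windows goes with direction was not tested. Olfr331 had -0.48, -0.48 and -0.46 (limma adjusted p = 0.00124), and Olfr329 had -0.43, -0.38 and -0.40 (limma adjusted p = 0.0019). All 12 values lie below 0. Olfr319 rose, and Olfr30 (0.16) did not pass. After 4 weeks Olfr330, Olfr331, Olfr319 and Olfr30 were called higher, and the members of the cluster had a median of 0.25, against -0.44 after 8 weeks. A cluster on the same chromosome holds Olfr59 and Olfr406, which rose after 8 weeks, and Olfr411, which fell. Olfr411 had -0.51, -0.41 and -0.57 after 8 weeks and 0.40, 0.30, 0.26 and 0.25 after 4 weeks. The difference was -0.80 (limma adjusted p = 0.000309). A second probe of Olfr411 gave -0.53 after 8 weeks and 0.28 after 4 weeks, each past the test. Neighbours in a cluster thus moved apart as well as together.

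The other receptors among the 10 lowest after 8 weeks were Olfr1508 (-0.54), Olfr5 (-0.50), Olfr173 (-0.44) and Olfr6 (-0.41). They were below 0 on all 3 arrays, with adjusted p of 0.000917 to 0.00651. With the processed signals several receptors stood further from 0 after 8 weeks, such as Olfr702 at 2.07 (from 0.65), Olfr331 at -1.21, Olfr6 at -1.15, Olfr5 at -1.04 and Olfr411 at -1.03. After the methods' t-test and adjustment Olfr1402, Olfr702, Olfr5 and Olfr6 did not pass at 8 weeks. Olfr5, a cluster neighbour of Olfr1348, was higher after 4 weeks (0.27, limma adjusted p = 0.0163).

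**Figure D3:**
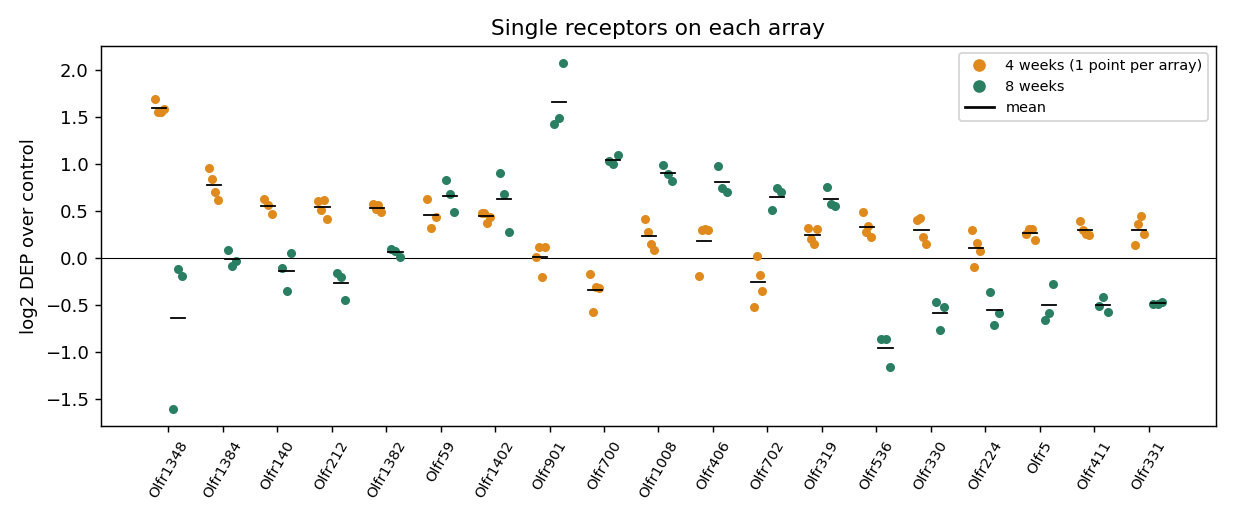
Log2 DEP over control of 19 receptors on each array (orange points, 4 weeks; green points, 8 weeks; black bars, means). Olfr1348 and the next receptors at the left were high after 4 weeks. The receptors from Olfr901 to Olfr319 had a higher mean after 8 weeks than after 4 weeks, as had Olfr59 and Olfr1402. Those from Olfr536 to the right were above 0 on average after 4 weeks and below 0 after 8 weeks.

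Set directly against each other, the 8-week log2 ratio was higher than that of 4 weeks in 7 members (5.79%) and lower in 39 (32.2%). The background was 14.8% of all genes higher and 16.1% lower, and among genes above background on all 7 arrays 16.3% and 20.3%. The median difference was -0.14, against 0.02 over all genes. The study's thresholds were passed by 4 members, Olfr901, Olfr700, Olfr536 and Olfr1348, against 3.05% of all genes. With the processed signals 37 members passed them, and the median difference was -0.59. In Olfr1348 the difference was -2.24 ± 0.33 (SE, limma adjusted p = 0.00246). Without replicate 1 of 4 weeks 11 members were higher at 8 weeks than at 4 weeks. Of the 50 members that were higher after 4 weeks, 11 were lower after 8 weeks, 10 were higher again and 29 were not called. The like shares over all genes were not counted. The 11 are Olfr5, Olfr48, Olfr170, Olfr212, Olfr330, Olfr331, Olfr411, Olfr536, Olfr541, Olfr1496 and Olfr1499, and in each the difference between the times passed the test. Of these 11 and Olfr700, which turned the other way, only Olfr411 was past the test at both times under all alternative settings. At 4 weeks the call was lost under 10 settings in Olfr48, 4 in Olfr5, 3 in Olfr330 and Olfr170, 2 in Olfr536 and 1 in Olfr331, Olfr1496, Olfr1499 and Olfr700. At 8 weeks it was lost under 9 settings in Olfr541, 5 in Olfr48, 4 in Olfr212, Olfr1496 and Olfr1499 and 1 in Olfr5. The difference between the times was lost only in Olfr48, under 2 settings. The 10 that were higher at both times include Olfr59, Olfr1402, Olfr1008 and Olfr319. No call was made in any comparison for 44 members.

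Among the 7 class I members, 3 were higher and 0 lower after 4 weeks by limma's adjusted p, with a median of 0.20. After 8 weeks 0 were higher and 1 was lower, with a median of 0.11. Of 111 class II members, 46 were higher and 3 lower after 4 weeks, and 21 higher and 22 lower after 8 weeks. Their medians were 0.12 and -0.05. The classes were not tested against each other. The 40 brightest members, from a mean log2 intensity of 7.34 on, held 21 of the 50 calls of higher after 4 weeks and 13 of the 21 after 8 weeks, and the 41 dimmest, up to 6.94, held 19 and 4.

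The intensities themselves differed between the exposure times. The control signal above background, as the median over the arrays of a time, was 1.34 times as high at 8 weeks as at 4 weeks for the median member, and 0.942 times for the median gene above background on all arrays. The DEP signal was 0.826 times as high for the median member and 0.785 times for the median gene, and it was lower at 8 weeks in 79 members (65.3%). These signals were not normalised between slides, and age, slide and scan cannot be told apart here. For 9 members (7.44%), against 1.35% of those genes, the control signal was over 3 times as high at 8 weeks, a limit chosen after the values were seen, and the DEP signal of these 9 was 2.86 to 16.01 times as high. Olfr122 had control signals of 60 to 113.5 at 4 weeks and 668.5 to 863 at 8 weeks, and its DEP signal rose alike, 9.57-fold. Olfr901 had control signals of 70.5 to 99 and then 442.5 to 520.5. Olfr406 had 76 to 197.5 and then 432 to 497, Olfr1402 had 49 to 71 and then 200 to 260.5, and Olfr319 had 55 to 87.5 and then 289.5 to 309. In these 5 receptors the ranges do not overlap. The same held for other members, such as Olfr96 and Olfr549 and, outside the 9, Olfr1008 and Olfr536. The share of such members or genes was not counted. Olfr1466, with 1 of the brightest probes, had a lower median at 8 weeks, 820 against 1814.5, but the ranges of 669 to 1003 and of 728.5 to 2119.5 overlap. Olfr901, Olfr406, Olfr1402, Olfr319 and Olfr1257, 5 of these 9, are among the 10 receptors with the largest increase with DEP after 8 weeks.

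**Figure D4:**
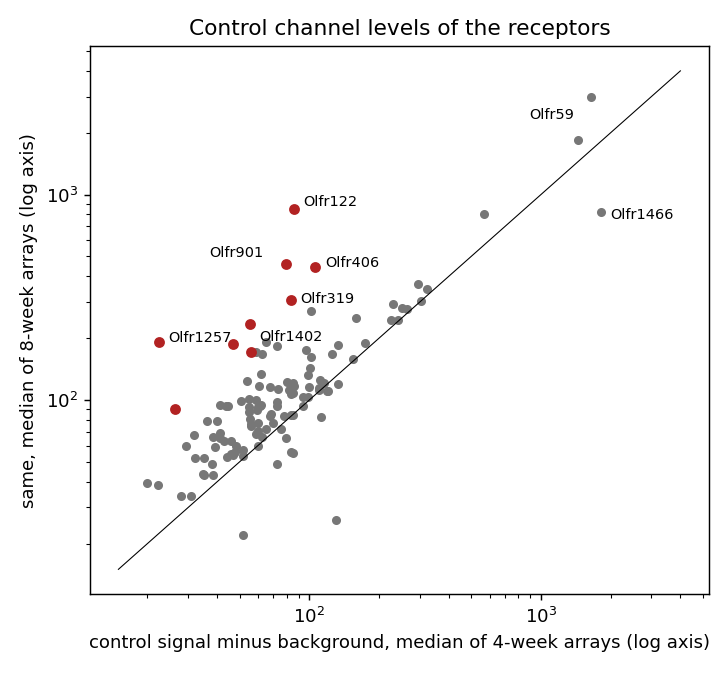
Control signal above background of the 121 members, as the median over the 4-week arrays (x axis) and over the 8-week arrays (y axis), both on log axes, with the line of equal values. Red points are the 9 receptors over 3 times as high at 8 weeks, Olfr122 (9.88 times) among them.

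A few spots with a bright control signal on a single array gave receptors a wide spread. The log2 ratios of 1 exposure time spanned 1 or more in 14 members. In Olfr695 the control signal on replicate 4 of 4 weeks was 76596.5, against 52 to 96.5 on the other 3 arrays, and the log2 ratio there was -8.52, against -0.21 to 0.15. Olfr629 had 2491 on replicate 2 of 4 weeks, against 131.5 to 158.5, with a log2 ratio of -2.99 there and of 0.44 to 0.71 on the others. Such arrays widened the error, and neither receptor was called. Without the 14 members, 49 were higher and 3 lower after 4 weeks, 20 higher and 23 lower after 8 weeks, and the 4-week median of the others was 0.18.

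Genes of the neurons that carry the receptors moved in the same direction as the receptors after 4 weeks. Of 11 markers of mature olfactory sensory neurons, all above background on all arrays, 8 were higher and 0 lower after 4 weeks by limma's adjusted p, with a median of 0.44. After 8 weeks 0 were higher and 8 were lower, with a median of -0.46, and the difference was lower in 9. Omp, the olfactory marker protein, was at 0.89 after 4 weeks and -0.43 after 8 weeks. Gnal, which encodes Golf, was at 0.61 and -0.72, Cnga2 of the channel at 0.44 and -0.46, and Gng13 at 0.52 and -0.94, each past the test at both times. The receptors had medians of 0.13 and -0.05 beside these, and the receptors that rose after 8 weeks, such as Olfr901 and Olfr59, stood opposite to Omp. Of 5 markers of immature neurons 3 were higher and 0 lower after 4 weeks, and 0 were higher and 2 lower after 8 weeks. Of 4 sustentacular cell genes tested, 4 were higher after 4 weeks, and after 8 weeks 3 were lower and Ermn was higher (1.70).

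Of 16 genes for the choice and transport of receptors, 9 were higher and 0 lower after 4 weeks, and 2 were higher and 6 lower after 8 weeks. Ebf4, an Ebf transcription factor of olfactory neurons, had the largest value after 4 weeks, 1.12, and was at -0.07 after 8 weeks. Lhx2, a homeodomain factor of receptor choice, was at 0.49 and 0.04, and Atf5, which acts in the feedback that fixes the choice, was at 0.52 and -0.40. Rtp1 and Rtp2, which bring receptors to the cell surface, were at 0.12 and 0.41 after 4 weeks and at -0.38 and 0.01 after 8 weeks. Emx2 was at -0.05 and -0.01. Trace amine receptors, the other family of odour receptors of these neurons, were near the limit of detection, and 2 of 14, Taar4 and Taar7f, could be tested. In both, the control channel was above background on no array of 4 weeks. After 8 weeks Taar4 had 0.32 (limma adjusted p = 0.00793), with the control channel above background on 2 arrays.

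Some genes of other cell types were called as well, in short lists. Of all genes tested, 21.6% were higher and 16.4% lower after 4 weeks, and 20.3% and 16.9% after 8 weeks. Whether these lists differ from those shares was not tested. Of 5 genes of respiratory ciliated cells 3 were higher after 4 weeks and 2 after 8 weeks. Of 4 progenitor genes tested, 0 were higher and 1 was lower after 4 weeks, and 2 were higher after 8 weeks. Of 4 secretory cell genes 1 was higher and 1 lower at each time. For vomeronasal neurons 2 of 4 genes were tested. Gnao1 was higher after 4 weeks and lower after 8 weeks, while Gnai2 was not called after 4 weeks and was higher after 8 weeks (0.28). Trpc2, which defines these neurons, was not detected enough to test. Of 3 testis genes, taken because receptors are also transcribed in testis, 0 were called after 4 weeks and Tnp1 was higher after 8 weeks. The part of a change in the share of neurons or other cells in the receptors' values was not tested.

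**Figure D5:**
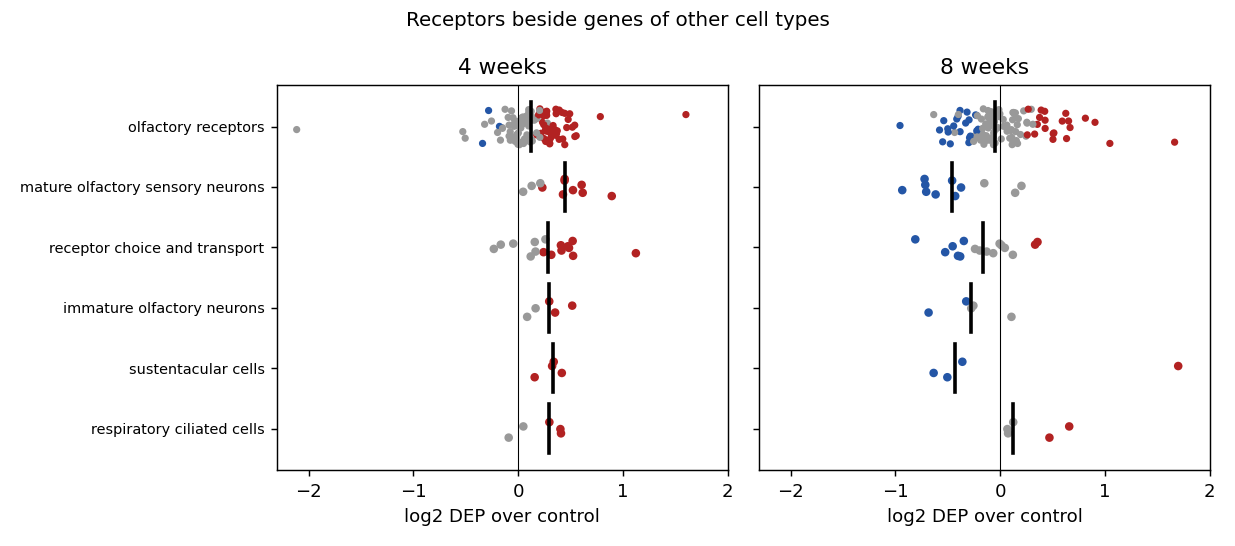
Log2 DEP over control after 4 weeks (left) and 8 weeks (right) for the 121 receptors and the tested genes of 5 lists. Each point is a gene (red, called higher; blue, called lower; grey, not called) and black bars are medians, which were 0.13 and -0.05 for the receptors and 0.44 and -0.46 for the mature neuron markers.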

How the data were processed

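RNA of DEP-exposed (Cy5) and control (Cy3) nasal tissue was measured on 2-colour Agilent arrays, 4 after 4 weeks and 3 after 8 weeks of exposure. The authors deposited 1 Feature Extraction 10.10.1.1 file per array, in which the median signals give the raw intensity of a spot and of its surrounding background. Its processed signals, also deposited as intensity, are corrected for background and dye by the software and served as an alternative. The deposited ratio column was not used.

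With limma 3.58.1 (R 4.3.3), backgrounds were corrected by normexp (offset 50), fitted without spots marked as background outliers, and ratios were normalized by loess within arrays. Non-uniform spots were dropped and spots of a probe averaged. Of 39429 probes, 28330 (71.9%) were named through RefSeq (GRCm38.p6) accessions. Tests covered the 25236 probes detected on 3 or more arrays (well above background in a channel), which stand for 20723 genes or transcripts. The value of a gene is that of its brightest tested probe. A model of all 7 arrays with 1 mean for each time gave both means and their difference, with Benjamini-Hochberg adjustment over all tested probes. The model and its adjustment were run on simulated log2 ratios, and the steps before it were not.

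An array had 18661 to 25098 probes detected in the DEP channel and 17105 to 26964 in the control channel, with no saturated spot, and precision is limited by how many arrays there are. Between arrays of 4 weeks log2 ratios correlated at 0.44 to 0.49 over tested probes, and between arrays of 8 weeks at 0.71 to 0.88.

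Named receptors are, at each time, the 10 highest and 10 lowest members past an adjusted p of 0.05 with 1 sign on every array, those past the study's thresholds, and the 5 highest and 5 lowest differences past the adjusted p. Olfr572, Olfr30, Olfr122, Olfr1466, Olfr544, Olfr695, Olfr629, receptors just inside and outside the rule and those listed by their calls at both times were named after their values were seen. The members and gene lists were chosen with earlier results of these data known. Alternatives were the background, the normalization, the processed signals, the filter on dim probes, the mean of a gene's probes, the arrays of 1 time alone, each array left out, the methods' t-test and a replicate block. The GeneSpring normalization of the study was not repeated.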

Additional observations from a re-analysis of the deposited data

Results flagged for a closer look

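Of 33 log2 ratios tested for an array apart from the other 3 after 4 weeks, those of 2 receptors met Dixon's limit, and chance gives about 1 in 20 (5%). Olfr406 was at -0.19 on replicate 1, against 0.30 to 0.31 on the others. Olfr329 was at 0.24 on replicate 3, against 0.01 to 0.03 on the others.

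In 12 receptors the DEP effect was called at both exposure times, in opposite directions on every array, and the difference between the times passed limma's adjusted p. The log2 difference of 8 weeks minus 4 weeks was 1.39 in Olfr700, which turned from lower to higher. It was -1.29 in Olfr536, -0.88 in Olfr330, -0.81 in Olfr212, -0.80 in Olfr411, -0.78 in Olfr331, -0.77 in Olfr5, -0.60 in Olfr541, -0.57 in Olfr170, -0.50 in Olfr1496 and in Olfr1499 and -0.43 in Olfr48, which turned from higher to lower. A second probe of Olfr1496 gave 0.11 after 4 weeks, which did not pass (limma adjusted p = 0.223). After 8 weeks that probe gave -0.23 (limma adjusted p = 0.0418). In all but Olfr411 the call of 1 or both times was lost under at least 1 alternative setting. Exposure time and slide cannot be told apart.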

How the results depend on the processing

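The rule gives 121 receptors, 31 when both channels must be above background on each array and 385 when either channel must be so on at least 3. Among those 31, fitted alone or counted in the unchanged fit, 13 were higher at 4 weeks, 5 higher and 7 lower at 8 weeks, and 2 higher and 10 lower in the difference; 0, 1 and 2 passed the study's thresholds and the 8-week median was -0.018. With the background fitted on all spots 27 were higher at 4 weeks, and without background correction 5 were lower at 4 weeks and the 8-week median was -0.039. Median centring gave 13 higher at 8 weeks and a median of -0.11. It moved the median of all genes there to -0.11 and the share of higher among all 8-week calls from 52% to 25.4%, and at 4 weeks from 56.3% to 42.2%. With the processed signals that 4-week share was 67.9%, 1 receptor was lower at 4 weeks, the medians were 0.49 at 4 weeks, -0.072 at 8 weeks and -0.59 for the difference, and 19, 11 and 37 receptors passed the study's thresholds. They moved the median of all genes by 0.09 at 4 weeks, and turned the difference of Olfr319 to -0.068. The methods' t-test called 31 higher and 0 lower at 4 weeks. Without the 14 receptors of wide spread, a count added after seeing the data, as was that of the 31 in the unchanged fit, the 4-week median was 0.18 and 0 passed the study's thresholds at 4 weeks. Over the fits that leave out 1 array, 39 to 50 receptors were higher and 2 to 3 lower at 4 weeks, 13 to 25 higher and 13 to 27 lower at 8 weeks, and 6 to 11 higher and 28 to 40 lower in the difference. The 8-week median then ran from -0.049 to -0.039. Between 2 and 3 receptors passed the study's thresholds at 8 weeks. Same-numbered arrays of both times did not deviate together (correlations of -0.01, -0.01 and 0.02), and with the replicate number as a block 5 receptors were higher and 26 lower in the difference. A block for the slide could not be fitted. Of 1195 values of named receptors under the alternatives, 1092 kept direction and call, 102 lost the call and 1 reversed. The causes were not tested. Dim signals limit these values: 90 of the 121 probes missed background in a channel on some array.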

Other observations

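Olfr1372-ps1 is listed with an olfactory receptor symbol that marks a pseudogene, and so it lies outside the rule. Both channels of its probe were above background on each of the 7 arrays. Its log2 DEP over control was 0.94, 1.20, 0.98 and 0.96 after 4 weeks (2.03-fold, limma adjusted p = 1.37e-05), higher than in any member but Olfr1348. After 8 weeks it was 0.43, 0.36 and 0.39, and the difference between the times was -0.63.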
